A study of Mus musculus with 34 samples.

Results

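The comparison described here is that of immortalized brown preadipocytes expressing K36M mutant histone H3.3 with cells expressing wild-type (WT) H3.3 at day 7 (D7) after induction of adipogenesis. It rests on 2 of the 34 samples of the series, 1 RNA-Seq library per condition. Genes were kept when the RPKM, reads corrected for how long a transcript is and how deep its library was sequenced, was at least 1 in either library, which held for 12587 of 23109 genes. The cells came from interscapular brown fat of newborn C57BL/6J mice and were immortalized with SV40T. The labels call all of them GR-flox/flox cells, meaning that both copies of the glucocorticoid receptor gene carry loxP sites, whereas the methods describe cells of WT mice. The protocol in the labels also speaks of Cre infection, which no label ties to a sample used here. Both kinds of cells received a retrovirus expressing FLAG-tagged H3.3, either WT or K36M, so the controls also carried SV40T and ectopic H3.3. Confluent cells were induced with insulin, T3, IBMX, dexamethasone, and indomethacin for 2 days and then kept in serum with insulin and T3. The study set out to learn how H3.3K36M acts on adipogenesis, and D7 stands for the end of that process.

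During adipogenesis, C/EBPβ and C/EBPδ act early and are followed by PPARγ and C/EBPα, which sustain each other and switch on the genes of lipid storage, insulin-responsive glucose uptake, and adipokine secretion. Brown adipocytes add many mitochondria and the uncoupling protein UCP1. Lysine 36 of histone H3 is methylated by enzymes such as NSD1, NSD2, and SETD2, and a methionine at that position lowers this methylation on the rest of the cell's H3.

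The recovered totals were 13319336 mapped reads for WT and 12213559 for K36M cells at D7. With 1 library per condition there is no replicate and no test. Beside a log2 ratio (K36M over WT), parentheses hold its 95% interval by the Clopper-Pearson method, taken from the reads behind both values. Such an interval reflects counting error alone, so it sets these libraries apart and says nothing of other cultures. A signal of 3 reads, taken as the floor, corresponds to 0.225 RPKM in WT and 0.246 RPKM in K36M cells for a transcript of 1 kb. The 10 genes with most reads took 5.63% of the gene reads in WT and 3.57% in K36M cells. Each list was read against all 12587 genes kept, whose median log2 ratio was 0.12, above 0.

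At D7, 1065 of the 12587 genes (8.46%) were over 2-fold lower with K36M than with WT H3.3, and 1478 (11.7%) were over 2-fold higher. Taken relative to the median of all genes kept, these counts were 1231 lower and 1274 higher. The quartiles of the log2 ratio were -0.25 and 0.52, and 5% of the genes lay below -1.45. Over 8-fold differences were found for 193 genes in the lower and 227 in the higher direction. Genes with much RNA in WT cells were more often lower, as 103 of the 367 genes with at least 100 RPKM in WT cells at D7 were over 2-fold lower and 14 were over 2-fold higher. Because a high WT value is part of that choice, the same was counted from the K36M side, where 64 of 356 genes with at least 100 RPKM were over 2-fold higher. The genes nearest to the threshold were *1700056E22Rik* (log2 ratio -1.0005, 1.86 and 0.931 RPKM) just past it and *Acadl* (-0.999, 78.6 and 39.3 RPKM) just short of it on the lower side, and *Rasa4* (5.65 and 11.3 RPKM) and *Ccdc74a* (1.06 and 2.11 RPKM) on the higher side.

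**Figure D1:**
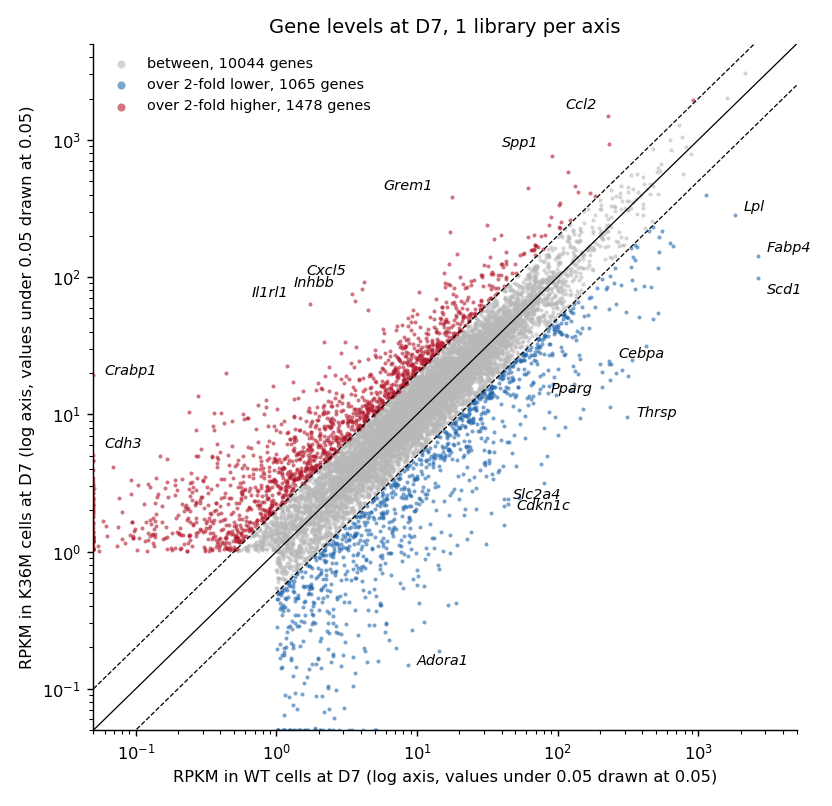
RPKM of each of the 12587 genes kept in the WT (horizontal) and K36M (vertical) library at D7, both on log axes, with values under 0.05 drawn at 0.05. The solid line marks equal levels and the dashed lines a 2-fold difference. Blue points are the 1065 lower and red points the 1478 higher genes. *Fabp4*, *Scd1*, and *Lpl* lie far below the lines at the high end of the WT axis.

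*Fabp4*, which encodes the fatty acid carrier of adipocytes (NM_024406, chromosome 3 from 10204347 to 10208576 in mm9), and *Scd1*, which encodes a fatty acid desaturase (NM_009127, chromosome 19 from 44468941 to 44482199), held ranks 1 and 2 of all genes in WT cells at D7. In K36M cells they held ranks 214 and 364. *Fabp4* had 2644 RPKM in WT but 143 RPKM in K36M cells, for a log2 ratio of -4.21 (-4.30 to -4.12). *Scd1* had 2644 RPKM in WT but 98.8 RPKM in K36M cells, and its log2 ratio was -4.74 (-4.78 to -4.70) from 170332 and 5838 reads. *Lpl*, the lipoprotein lipase gene, went from rank 4 with 1817 RPKM in WT cells to rank 74 with 284 RPKM in K36M cells. In bulk RNA, fewer fat cells and less RNA of these genes per cell cannot be told apart, and this holds for every gene list.

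The 10 genes whose lower ratio stood farthest from counting error, among those with at least 5 RPKM in either library, included several receptors and signalling genes of fat cells. *Adora1*, an adenosine receptor gene (NM_001039510, chromosome 1 from 136095800 to 136132008), had 8.58 RPKM in WT but 0.148 RPKM in K36M cells. Its log2 ratio was -5.85 (-6.99 to -4.92). *Thrsp*, a lipogenic regulator (NM_009381, chromosome 7 from 104561448 to 104566240), had 312 RPKM in WT but 9.54 RPKM in K36M cells, for a log2 ratio of -5.03 (-5.31 to -4.77). *Prlr*, the prolactin receptor gene, had 7.09 and 0.198 RPKM, and *Mc5r*, a melanocortin receptor gene, had 19.1 and 0.423 RPKM, in WT and K36M cells respectively. For *Acvr1c*, which encodes the activin receptor ALK7, the values were 5.29 and 0.161 RPKM. *Rgs2*, a regulator of G protein signalling, had 79.4 and 3.16 RPKM, and *Ppp1r1a*, an inhibitor of protein phosphatase 1, had 14.3 and 0.19 RPKM, the latter from 3 reads. *Car2*, a carbonic anhydrase gene, had 41.3 and 1.56 RPKM, and *Rarres1*, a retinoid-responsive gene, had 16.7 and 0.406 RPKM. The log2 ratios of these 7 genes ranged from -6.24 to -4.65.

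In the other direction, *Crabp1*, which encodes a cytosolic retinoic acid binding protein (NM_013496, chromosome 9 from 54612555 to 54620917), had no read in WT cells and 175 reads (19.3 RPKM) in K36M cells at D7, at least 63.6-fold higher against a floor of 3 reads. *Cdh3*, the P-cadherin gene, had 2 and 200 reads, which puts it below the floor in WT cells, and a log2 ratio of 6.77 (4.90 to 9.82). *Grem1*, a secreted BMP antagonist (NM_011824, chromosome 2 from 113586321 to 113598803), had 17.7 RPKM in WT but 384 RPKM in K36M cells, and its log2 ratio was 4.44 (4.29 to 4.59). *Inhbb*, an activin subunit gene, had 3.42 and 74.8 RPKM. *Il1rl1*, the receptor gene of interleukin-33, had 1.73 and 63.7 RPKM, and *Cxcl5*, a neutrophil chemokine gene, had 4.22 and 91.8 RPKM. The carbonic anhydrase relative *Car8* had 0.276 and 13.5 RPKM. *Olr1*, a receptor for oxidized LDL, had 0.358 and 10.3 RPKM, *Cck*, the cholecystokinin gene, had 0.438 and 20.2 RPKM, and *C130026I21Rik* had 0.239 and 10.5 RPKM. *Crabp1*, *Car8*, *Cdh3*, *Il1rl1*, *C130026I21Rik*, *Olr1*, and *Cck* were already over 2-fold higher in K36M cells at D0, whereas *Cxcl5* then had a log2 ratio of -3.79.

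Among the 15 adipogenic transcription factors listed, 8 were over 2-fold lower and none was over 2-fold higher at D7, with a median log2 ratio of -1.09. *Cebpa* (NM_007678, chromosome 7 from 35904312 to 35906945) had 232 RPKM in WT but 24.4 RPKM in K36M cells, for a log2 ratio of -3.25 (-3.36 to -3.15). For *Pparg* (chromosome 6 from 115311239 to 115440419, NM_011146) the values were 101 and 21.4 RPKM, a log2 ratio of -2.24 (-2.39 to -2.10). *Srebf1*, a lipogenic factor, had 167 and 42.9 RPKM. *Zfp423*, a factor of committed preadipocytes, had 8.77 and 2.15 RPKM, and *Klf15* had 28.1 and 9.28 RPKM. The early factors were not among the lower genes, since *Cebpb* had 69.04 RPKM in WT but 101 RPKM in K36M cells and *Cebpd* had 29.1 and 41.5 RPKM. *Klf5* stood highest, at a log2 ratio of 0.83 (0.26 to 1.41). Of the 6 anti-adipogenic factors listed, *Gata2* (3.13 and 9.97 RPKM) and *Klf2* (5.66 and 11.9 RPKM) were over 2-fold higher. With the median of all genes set to 0, *Klf2* was short of 2-fold and 1 of the 6, *Hes1*, was lower. The adipocyte lists hold genes, such as *Cebpa*, *Scd1*, and *Irs2*, that the study itself names from these libraries, so their counts are not independent evidence of direction.

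**Figure D2:**
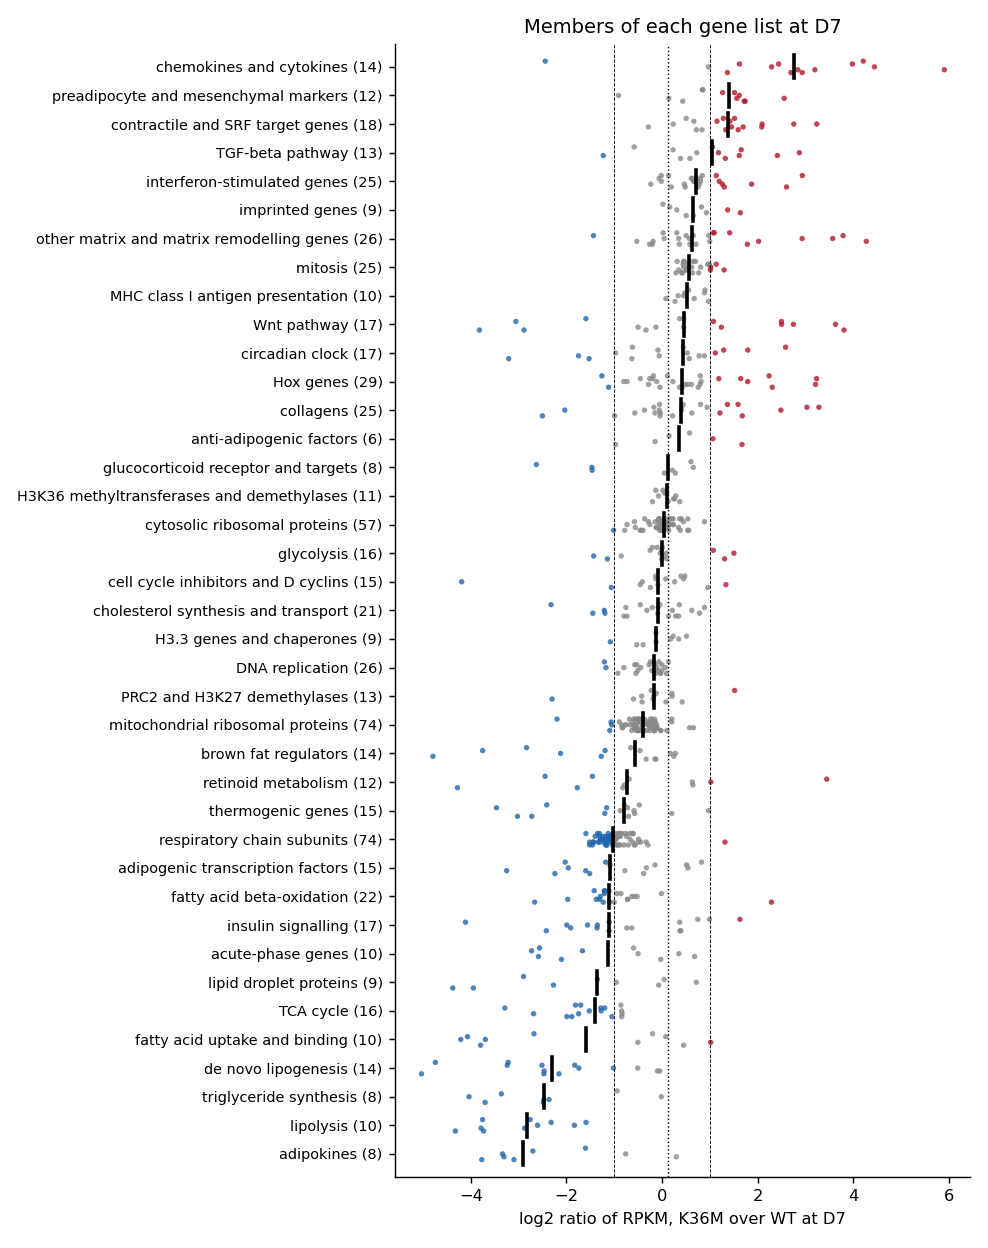
Log2 ratio (K36M over WT) at D7 for each member of the lists with at least 5 members kept, with the number kept in parentheses. Blue and red points are past 2-fold (dashed lines), black bars are list medians, and the dotted line is the median of all genes kept, 0.12. *Crabp1*, at 0 in WT cells, is not drawn. The lowest medians are those of adipokines, lipolysis, triglyceride synthesis, and de novo lipogenesis, and the highest is that of chemokines and cytokines.

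Genes of fat storage and release were lower in K36M cells to different extents. All 10 lipolysis genes kept were over 2-fold lower, with a median log2 ratio of -2.82. *Pnpla2*, the gene of adipose triglyceride lipase, had 236 RPKM in WT but 17.8 RPKM in K36M cells, and *Lipe*, that of hormone-sensitive lipase, had 152 and 11.02 RPKM. *G0s2*, an inhibitor of adipose triglyceride lipase, was lower as well, with 335 and 24.9 RPKM, and *Abhd5*, its co-activator, had the smallest difference of the list at -1.59 (-1.71 to -1.47). Of the 8 triglyceride synthesis genes kept, 6 were over 2-fold lower, led by *Dgat2* (314 and 19.1 RPKM, log2 ratio -4.04) and *Gpd1* (262 and 20.1 RPKM). *Agpat1*, of the same pathway but found in most tissues, had 32.6 and 32.3 RPKM. Among 9 lipid droplet proteins kept, 5 were lower, among them *Cidec* (236 and 11.4 RPKM, log2 ratio -4.38) and *Plin1* (144 and 9.33 RPKM). *Plin2*, the droplet coat gene of many cell types, had 153 and 146 RPKM, and *Plin3* had 32.5 and 53.4 RPKM.

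De novo lipogenesis, the making of fatty acids from glucose, had 11 of 14 genes over 2-fold lower and a median log2 ratio of -2.31. *Fasn*, the fatty acid synthase gene, had 519 RPKM in WT but 54.99 RPKM in K36M cells, for a log2 ratio of -3.24. *Acly*, the ATP citrate lyase gene, had 308 and 55.6 RPKM, and *Scd2* had 519 and 116 RPKM. The desaturase genes *Fads1* and *Fads2* were outside this pattern, with 84.8 and 82.04 RPKM and 71.4 and 50.2 RPKM. Fatty acid uptake and binding had 5 of 10 genes lower and 1 higher. *Cd36*, a fatty acid transporter gene, had 112 and 8.09 RPKM and a log2 ratio of -3.80 (-3.96 to -3.64), and *Acsl1*, which activates fatty acids, had 205 and 15.8 RPKM. The 1 higher gene, *Fabp3*, was low in both libraries, with 0.821 and 1.66 RPKM. This list's median of -1.59 fell between 2 groups of genes and was -2.68 when at least 5 RPKM was asked for.

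Insulin signalling held 9 lower genes and 1 higher gene of 17. *Slc2a4*, which encodes the insulin-responsive glucose transporter GLUT4 (NM_009204, chromosome 11 from 69756045 to 69761690), had 41.6 RPKM in WT but 2.41 RPKM in K36M cells, for a log2 ratio of -4.11 (-4.45 to -3.79). *Irs2*, an adaptor of the insulin receptor, had 22.9 and 8.96 RPKM and a log2 ratio of -1.35 (-1.51 to -1.19), and *Pik3r1*, a regulatory subunit of PI3 kinase, had 78.1 and 19.6 RPKM. *Grb14*, an inhibitor of insulin receptor signalling, was the higher gene with 3.56 and 11.01 RPKM, and *Akt1* had 68.7 and 90.3 RPKM. Of 8 adipokine genes kept, 6 were lower. *Adipoq*, the adiponectin gene, had 287 RPKM in WT but 21.00 RPKM in K36M cells and moved from rank 77 to rank 3252. *Cfd*, the adipsin gene, had 207 and 20.5 RPKM, and *Agt*, the angiotensinogen gene, had 199 and 23.3 RPKM. *Angptl4* had 23.99 and 29.6 RPKM.

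Acute-phase genes split. *Orm1* (15.5 and 2.35 RPKM) and *Hp*, the haptoglobin gene (355 and 82.6 RPKM), were among the 5 of 10 over 2-fold lower, whereas *Saa3* had 625 and 1003 RPKM and *Lcn2* had 254 and 325 RPKM, both short of 2-fold. *C3* had 403 and 285 RPKM.

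Mitochondrial genes lay on the lower side too. Of 74 respiratory chain subunits, 40 were over 2-fold lower and 1 was higher, with a median log2 ratio of -1.03, which lies close to the threshold itself. *Atp5b*, the ATP synthase beta subunit, had 1135 RPKM in WT but 397 RPKM in K36M cells, *Cox4i1* had 549 and 216 RPKM, and *Cyc1*, of complex III, had the lowest ratio at -1.59 (-1.70 to -1.48). The exception, *Atp5g2*, had 0.812 and 2.02 RPKM and belongs to a small family whose members encode nearly the same protein, so its level is uncertain. The TCA cycle had 12 of 16 genes lower, with *Pcx*, the pyruvate carboxylase gene, lowest (479.6 and 49.1 RPKM, log2 ratio -3.29) and *Cs*, the citrate synthase gene, at 283 and 87.1 RPKM. Fatty acid beta-oxidation had 12 of 22 lower. *Cpt1a*, the liver-type gene for fatty acid entry into mitochondria, was the 1 higher gene, with 9.67 RPKM in WT but 47.3 RPKM in K36M cells, for a log2 ratio of 2.29 (2.16 to 2.43). Genes of the mitochondrial ribosome were seldom past 2-fold, as 4 of 74 were lower and none higher. They still lay on the lower side, with a median of -0.40 and 70 of the 74 below the median of all genes.

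Markers of mature brown fat were nearly absent from both libraries. *Ucp1* had 1 read in WT cells and none in K36M cells at D7, *Cidea* had none in either, and the highest *Ucp1* value in any of the 14 RNA-Seq libraries was 0.194 RPKM. No ratio is given for either gene. The general fat cell markers *Adipoq*, *Fabp4*, and *Plin1* were high in WT cells, so the markers of fat cells in general were present at D7 and the defining brown markers were not. Of 22 thermogenic genes listed, 15 were kept, 6 were over 2-fold lower, and none was higher. *Adrb3*, the beta3-adrenergic receptor gene, had 11.6 RPKM in WT but 1.05 RPKM in K36M cells, for a log2 ratio of -3.46 (-3.996 to -2.97), and *Kcnk3*, a potassium channel gene, had 17.05 and 2.58 RPKM. *Fgf21* stood highest with 3.17 and 6.23 RPKM. Among 14 brown fat regulators kept, 6 were lower. *Ppargc1a*, the coactivator gene of mitochondrial biogenesis, had 6.32 RPKM in WT but 0.228 RPKM in K36M cells, for a log2 ratio of -4.79 (-5.56 to -4.12), and *Nrip1*, a corepressor gene, had 30.3 and 4.25 RPKM. *Prdm16*, the brown fate determinant, had 2.29 and 2.07 RPKM, and *Esrra* and *Gabpa* had 23.5 and 14.9 RPKM and 20.1 and 22.7 RPKM.

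Markers of preadipocytes and mesenchymal cells were on the other side, with 7 of 12 over 2-fold higher, none lower, and a median log2 ratio of 1.39, although *Sox9* was lower once the median of all genes was set to 0. *Ly6a*, which encodes the stem cell antigen Sca-1, had 169 RPKM in WT but 408 RPKM in K36M cells. *Pdgfrb*, a receptor of mural and progenitor cells, had 40.4 and 124 RPKM, and *Thy1* had 14.7 and 49.2 RPKM. *S100a4* had 101 and 334 RPKM, and *Vim*, the vimentin gene, had 475 and 857 RPKM. *Dlk1*, the preadipocyte factor Pref-1, differed less, at 25.99 and 35.1 RPKM. The preadipocyte markers *Pdgfra* (48.7 and 53.8 RPKM) and *Cd34* (5.42 and 9.73 RPKM) were short of 2-fold as well.

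The contractile and SRF target genes, which serum response factor drives in spread and tense cells, had 12 of 18 higher and none lower. *Acta2*, the smooth muscle actin gene, had 80.7 RPKM in WT but 204 RPKM in K36M cells, for a log2 ratio of 1.33 (1.26 to 1.41). *Tagln* had 33.04 and 140.4 RPKM and *Cnn1*, the calponin gene, had 0.869 and 8.20 RPKM. The non-muscle genes *Flna* (129 and 152 RPKM) and *Vcl* (51.3 and 42.1 RPKM) were not over 2-fold apart. The TGF-beta pathway had 7 of 13 genes higher, with *Ltbp1*, which anchors the latent ligand, at 5.72 and 41.9 RPKM. *Tgfb2* itself was lower, with 4.46 and 1.91 RPKM.

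Matrix genes were mixed, beside 11.7% of all genes kept that were higher and 8.46% that were lower. Of 25 collagens kept, 7 were higher and 2 lower, and the most abundant, *Col1a1*, had 409.8 and 478 RPKM. *Col8a1* had the highest ratio, 3.28 (2.87 and 27.9 RPKM). The 7 higher collagens were mostly low in level, since 2 of them were left when at least 5 RPKM was asked for. Of 26 other matrix genes, 9 were higher, among them *Bgn*, the biglycan gene (921 and 1961 RPKM), and 1 was lower. Wnt pathway genes went both ways, with 7 higher and 4 lower of 17, beside the same shares. *Sfrp1*, a secreted Wnt inhibitor, had 17.2 RPKM in WT but 213 RPKM in K36M cells, while its relative *Sfrp2* had 125 and 15.1 RPKM.

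Chemokines and cytokines had the highest median of all lists, 2.77, with 12 of 14 genes kept over 2-fold higher. *Ccl2*, which draws monocytes (NM_011333, chromosome 11 from 81849073 to 81850955), had 229 RPKM in WT but 1487 RPKM in K36M cells, for a log2 ratio of 2.70 (2.64 to 2.76). *Ccl7* had 118 and 579 RPKM and *Ccl5* had 61.9 and 444 RPKM. *Cxcl2* had the highest ratio of the list, 5.91 (3.37 to 11.24), from 1 and 55 reads. *Cxcl12*, a homeostatic chemokine made by stromal cells, was the 1 lower gene, with 463 and 85.2 RPKM. Interferon-stimulated genes had 7 of 25 higher and none lower, led by *Ifi27l2a* (19.3 and 148 RPKM). *Isg15* had 184 and 282 RPKM and *Ifit1* had 129 and 217 RPKM. None of the 10 listed genes of MHC class I antigen presentation was over 2-fold apart, and *B2m* had 1599.9 and 2022 RPKM. Of all genes kept, 11.7% were higher and 8.46% lower. The 10 still leaned higher, with a median of 0.52 and 1 of them below the median of all genes. Class I genes outside the list were past 2-fold, namely *H2-Q6* (1.67), *H2-Q7* (1.29), and *H2-Q9* (1.29), picked after their values were seen.

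For the chemokine, interferon-stimulated, and contractile lists, RefSeq promoters (build GRCm38.p6, the 250 bases before the annotated start, 5′ to 3′ on the strand of the gene) were searched on both strands for the motifs of NF-kB, of interferon factors (ISRE, 2 runs of GAAA with any 2 bases between them), and of serum response factor (CArG box). The 7 shown were chosen among genes that held a match and were over 2-fold higher in K36M cells at D7. They therefore say nothing of how match and level go together. *Il6* (log2 ratio 1.37), with an NF-kB match, met both conditions and is not shown. Capitals mark matches of the motif searched for the gene's own list alone. That is NF-kB for *Cxcl1*, *Cxcl2*, and *Cxcl10*, the ISRE for *Ifit3* and *Oas1a*, and the CArG box for *Myl9* and *Cnn2*. Other motifs are not marked, so a run in the *Cxcl10* window that fits the ISRE (gaaagtgaaa) stays in small letters.
Cxcl1: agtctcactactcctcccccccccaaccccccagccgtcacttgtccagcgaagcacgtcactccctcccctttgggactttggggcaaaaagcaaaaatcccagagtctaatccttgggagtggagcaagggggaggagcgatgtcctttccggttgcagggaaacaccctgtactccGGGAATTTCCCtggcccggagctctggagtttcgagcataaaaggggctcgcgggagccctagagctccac
Cxcl2: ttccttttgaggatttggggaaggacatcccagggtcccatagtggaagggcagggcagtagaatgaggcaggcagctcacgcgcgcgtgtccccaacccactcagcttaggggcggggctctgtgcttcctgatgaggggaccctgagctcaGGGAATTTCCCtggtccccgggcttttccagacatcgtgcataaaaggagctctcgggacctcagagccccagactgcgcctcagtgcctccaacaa
Cxcl10: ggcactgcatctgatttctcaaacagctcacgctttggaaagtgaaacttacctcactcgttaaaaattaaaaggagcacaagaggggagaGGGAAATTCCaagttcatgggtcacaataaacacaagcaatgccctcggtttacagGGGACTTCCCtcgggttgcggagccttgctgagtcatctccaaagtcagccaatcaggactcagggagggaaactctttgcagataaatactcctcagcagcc
Ifit3: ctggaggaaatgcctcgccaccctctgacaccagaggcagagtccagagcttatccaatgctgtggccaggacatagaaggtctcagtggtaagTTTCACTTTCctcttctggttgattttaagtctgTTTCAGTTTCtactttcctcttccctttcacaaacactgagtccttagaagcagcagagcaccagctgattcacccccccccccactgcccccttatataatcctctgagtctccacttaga
Oas1a: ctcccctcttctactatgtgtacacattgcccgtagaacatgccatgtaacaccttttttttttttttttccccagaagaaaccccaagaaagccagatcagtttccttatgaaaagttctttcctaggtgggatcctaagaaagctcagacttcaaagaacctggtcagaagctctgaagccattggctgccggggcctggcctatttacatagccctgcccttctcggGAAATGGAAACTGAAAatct
Myl9: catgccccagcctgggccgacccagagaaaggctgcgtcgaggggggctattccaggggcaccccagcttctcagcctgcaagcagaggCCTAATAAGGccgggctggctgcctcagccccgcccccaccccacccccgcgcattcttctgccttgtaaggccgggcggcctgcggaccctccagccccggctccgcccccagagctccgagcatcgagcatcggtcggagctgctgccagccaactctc
Cnn2: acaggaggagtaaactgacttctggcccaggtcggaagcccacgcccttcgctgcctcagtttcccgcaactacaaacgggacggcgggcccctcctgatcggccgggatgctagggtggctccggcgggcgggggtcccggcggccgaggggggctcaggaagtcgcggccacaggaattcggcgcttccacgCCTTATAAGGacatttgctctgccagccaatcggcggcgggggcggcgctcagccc
Coordinates of these windows are chr5:90890995-90891244 (plus strand) for *Cxcl1*, chr5:90903649-90903898 (plus) for *Cxcl2*, chr5:92348890-92349139 (minus) for *Cxcl10*, chr19:34583279-34583528 (plus) for *Ifit3*, chr5:120907526-120907775 (minus) for *Oas1a*, chr2:156775214-156775463 (plus) for *Myl9*, and chr10:79988350-79988599 (plus) for *Cnn2*. At D7, *Cxcl1* had 10.3 and 78.5 RPKM, *Cxcl10* 89.6 and 276 RPKM, *Ifit3* 68.2 and 156 RPKM, *Oas1a* 11.2 and 24.6 RPKM, *Myl9* 20.8 and 59.6 RPKM, and *Cnn2* 54.2 and 145 RPKM, WT cells first. In *Cxcl1*, *Cxcl2*, and *Oas1a* both matches overlap. An NF-kB match stood in the windows of 5 of 9 chemokine and cytokine genes, an ISRE in 11 of 19 interferon-stimulated genes, and a CArG box in 4 of 15 contractile genes. Of the 11 interferon-stimulated genes with an ISRE, *Ifit3* and *Oas1a* alone were over 2-fold higher. *Gbp2*, *Igtp*, *Gbp3*, and *Isg15*, for example, had log2 ratios of -0.016, -0.013, 0.20, and 0.61. Of the 4 with a CArG box, *Srf* (0.51) and *Vcl* (-0.28) were short of 2-fold, as was *Csf1* (0.97) of the 5 with an NF-kB match. Interferon-stimulated genes and SRF targets are defined by such factors, so frequent matches in them do not bear on K36M. Over the 9600 genes kept that had a window, the shares were 4.41%, 2.59%, and 1.14%. They were 6.73%, 3.71%, and 1.46% for genes over 2-fold higher, and 4.09%, 1.58%, and 1.32% for genes over 2-fold lower. A C/EBP motif (TTGCNNAA) was in none of 8 windows of lipolysis genes and in 7.29% of all windows. It was in 8.58% of windows of lower genes and 8.49% of those of higher genes. Windows were at hand for 76.3% of the genes kept, so these shares are not compared between sets, and a match is a run of letters, not a bound site.

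Cell cycle genes past 2-fold were counted beside the shares of all genes kept. Of 26 DNA replication genes, 2 were lower and none higher, against 8.46% and 11.7% of all genes kept. *Mcm2* had 93.3 and 63.8 RPKM. Their median was -0.16, and 25 of the 26 had ratios below the median of all genes. Of 25 mitosis genes, 4 were over 2-fold higher, against 11.7% of all genes kept, and the count was 2 with the median set to 0. All 25 had ratios above the median of all genes. *Top2a* had 45.5 and 57.96 RPKM and *Kif23*, a motor of cell division, had the highest ratio, 1.30 (1.06 to 1.54). *Cdkn1c*, which encodes the cell cycle inhibitor p57, was far lower, with 44.01 RPKM in WT but 2.41 RPKM in K36M cells, for a log2 ratio of -4.19 (-4.61 to -3.80). *Cdkn1a* had 228 and 193 RPKM, and *Ccnd1*, the cyclin D1 gene, had 10.2 and 25.8 RPKM.

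The enzymes that write and erase H3K36 methylation were near level. None of 11 was past 2-fold, and *Nsd2* had 18.7 RPKM in WT but 22.4 RPKM in K36M cells, for a log2 ratio of 0.26 (0.17 to 0.36). *Nsd1* had 18.4 and 16.02 RPKM. In the PRC2 group, which writes H3K27 methylation, *Jarid2* (9.67 and 1.96 RPKM) was the 1 lower and *Phf1* (5.07 and 14.5 RPKM) the 1 higher of 13 genes. Both lists stand beside 8.46% of all genes kept that were lower and 11.7% that were higher, so such counts do not set them apart. The H3.3 genes *H3f3a* and *H3f3b* had 19.3 and 13.4 RPKM and 133 and 122 RPKM, and their reads cannot be told apart from any that the retroviral H3.3 gave, so the transgene could not be checked from these tables.

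*Hox* genes give cells their position along the body. Of 29 *Hox* genes kept, 7 were higher and 2 lower, against 11.7% and 8.46% of all genes kept, with a median of 0.42. The 7, singled out after their values were seen, all come from groups 9 to 13 of the clusters, the end that patterns the rear of the body. *Hoxb13* had 0.457 RPKM in WT but 4.30 RPKM in K36M cells, *Hoxa11* had 0.201 and 1.86 RPKM, and *Hoxa10* had 0.452 and 2.24 RPKM. *Hoxc10*, *Hoxc11*, *Hoxc12*, and *Hoxd9* had log2 ratios between 1.19 and 2.24. Most were low, since 1 gene was left when at least 5 RPKM was asked for. The difference did not start at D7, because *Hoxa11* and *Hoxa10* already had log2 ratios of 3.70 and 2.41 at D0, when *Hoxb13* had 2 reads in WT and 68 reads in K36M cells. The abundant *Hoxb9* (29.3 and 50.9 RPKM) and *Hoxc6* (25.6 and 22.3 RPKM) were within 2-fold.

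Retinoid genes also parted, with 4 of 12 lower and 3 higher, against 8.46% and 11.7% of all genes kept. *Aldh1a7* had 41.7 and 2.15 RPKM, *Adh1*, an alcohol and retinol dehydrogenase gene, had 47.8 and 13.99 RPKM, and *Retsat*, the retinol saturase gene, had 36.98 and 13.5 RPKM, against *Crabp1* in the other direction. In the circadian clock, 3 of 17 genes were lower and 4 higher, against the same shares. *Npas2* (2.35 and 0.255 RPKM), *Arntl* (8.30 and 2.47 RPKM), and *Cry1* (12.97 and 4.51 RPKM) were lower, whereas the output gene *Dbp* (5.68 RPKM in WT but 34.1 RPKM in K36M cells) and the repressor gene *Nr1d1* (18.01 and 39.02 RPKM) were higher. The time of day at harvest is not given in the sources used here. Among 8 glucocorticoid receptor genes and targets, 3 were lower and none higher, with a median of 0.13 beside 0.12 for all genes. The lower ones were *Zbtb16* (32.7 and 5.28 RPKM), *Tsc22d3* (64.98 and 23.5 RPKM), and *Fkbp5* (107 and 38.8 RPKM). Of the imprinted genes listed, 2 of 9 were higher and none lower, against 11.7% and 8.46% of all genes kept, with *Meg3* at 23.00 and 71.6 RPKM. *Cdkn1c*, an imprinted gene counted with the cell cycle inhibitors and not in this list, was far lower, as given above.

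The cytosolic ribosomal protein list gave a housekeeping reference. Of 57 cytosolic ribosomal protein genes, 1 was over 2-fold lower and none higher, with a median of 0.037, and *Rps9* had 431 and 437 RPKM. Outside that reference, glycolysis had 2 lower and 3 higher of 16, against 8.46% and 11.7% of all genes kept. *Pkm* had 185 and 389 RPKM. Cholesterol synthesis and transport had 4 of 21 lower and none higher, against the same shares, with a median of -0.09 and 17 genes within 2-fold. *Abca1*, a cholesterol exporter gene, had 53.5 and 10.7 RPKM. Genes with near-identical copies elsewhere in the genome are uncertain, as how such reads were counted is not given in the sources used here.

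Markers of other cell types were scarce. Of 9 macrophage markers measured, 1 was kept, their summed level was 2.10 RPKM in WT and 4.73 RPKM in K36M cells, and 4 and 5 of them were at 0. Endothelial markers summed to 1.495 and 6.15 RPKM, skeletal muscle markers to 2.37 and 4.35 RPKM, and epithelial and glial markers to 0.53 and 1.36 RPKM. Bone and cartilage markers summed to 123 and 785 RPKM, of which *Spp1*, the osteopontin gene that many stromal cells also make, gave 91.5 and 767 RPKM. *Runx2* had 3.62 and 13.9 RPKM, *Alpl* was lower with 26.2 and 2.05 RPKM, and 3 and 2 of the 10 markers were at 0.

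How the D7 ratios relate to earlier days was taken from the D0 and D2 libraries, which share no library with the D7 comparison. Of the 869 genes lower at D7 that were also kept at D2, 251 (28.9%) were already over 2-fold lower at D2, against 3.94% of the 11667 genes kept at both days, and the 251 were 54.6% of the genes lower at D2. Of the 1081 genes higher at D7, 604 (55.9%) were higher at D2, against 10.6%, and they were 48.8% of those higher at D2. At D0, 194 of 790 genes lower at D7 (24.6%) were lower, against 6.01%, and 252 of 1273 higher at D7 (19.8%) were higher, against 4.01%. A further 139 of the 1273 (10.9%) were over 2-fold lower at D0. Across genes, the D7 and D2 ratios had a Spearman correlation of 0.51 (Pearson 0.56, 11612 genes), and the D7 and D0 ratios one of 0.051 (Pearson 0.24, 11820 genes). These describe genes of single libraries from the same cell lines, and genes are not independent replicates.

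**Figure D3:**
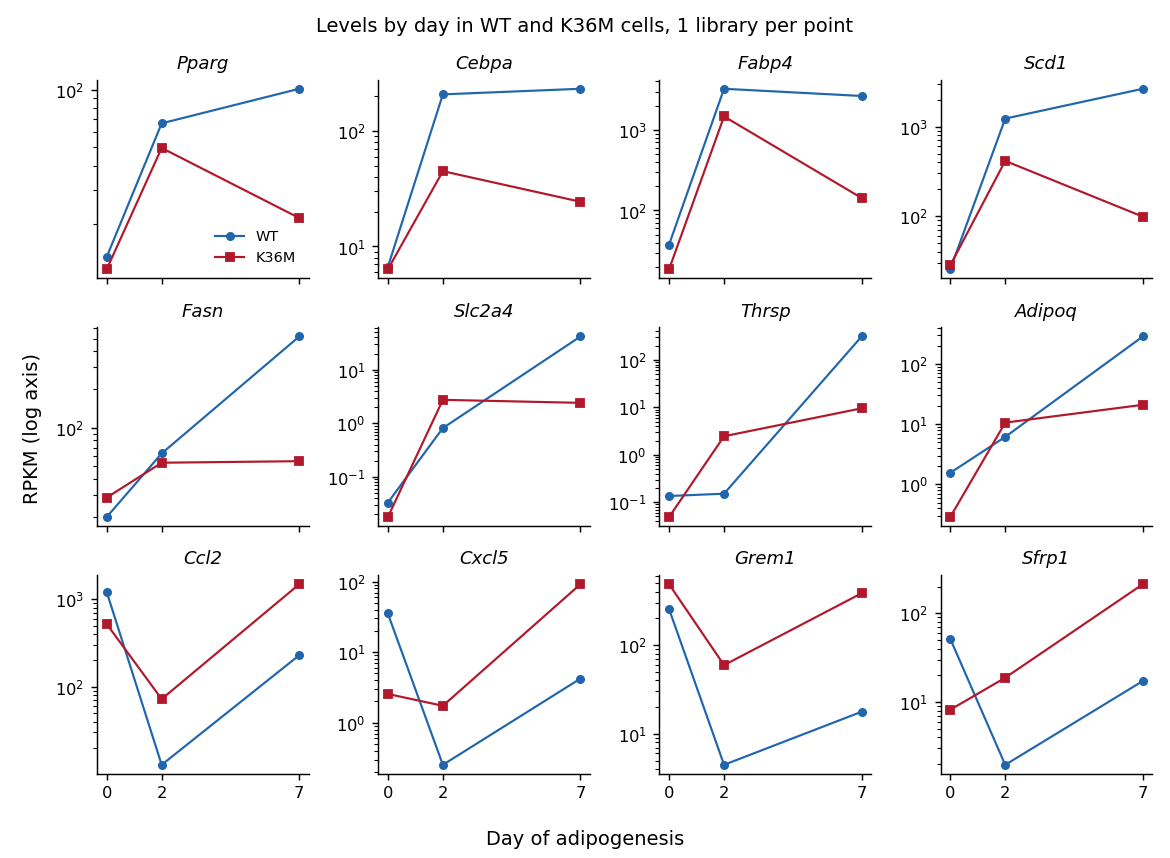
RPKM (log axis) at D0, D2, and D7 for 12 genes in WT cells (blue circles) and K36M cells (red squares), 1 library per point. *Cebpa*, *Pparg*, *Fabp4*, and *Scd1* are below their D2 level at D7 in K36M cells, *Thrsp* and *Slc2a4* are higher in K36M cells at D2 and lower at D7, and *Ccl2*, *Cxcl5*, *Grem1*, and *Sfrp1* are lowest at D2 in WT cells and higher in K36M than in WT cells at D2 and D7.

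The adipocyte genes followed different courses. *Fabp4* reached 3249 RPKM in WT and 1473 RPKM in K36M cells at D2, from 37.6 and 18.5 RPKM at D0, and then stood at 143 RPKM at D7 in K36M cells. *Pparg* had 11.5, 49.6, and 21.4 RPKM in K36M cells at D0, D2, and D7, against 13.4, 66.7, and 101 RPKM in WT cells. Lipolysis genes summed to 387 RPKM at D2 and 109 RPKM at D7 in K36M cells, and to 878 and 963 RPKM in WT cells. De novo lipogenesis genes had a median log2 ratio of -0.058 at D2 and -2.31 at D7. At D2 its members went both ways, with 1 lower and 4 higher of 13 kept, and they summed to 1684 RPKM in WT and 899.7 RPKM in K36M cells. *Fasn* had 63.2 and 53.5 RPKM at D2. Respiratory chain subunits had medians of 0.26 (D0), -0.32 (D2), and -1.03 (D7).

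Chemokines crossed over. Their median log2 ratio went from -1.51 (D0) through 1.35 (D2) to 2.77 (D7). *Ccl2* had 1216 RPKM in WT and 522 RPKM in K36M cells at D0, 12.8 and 72.3 RPKM at D2, and 229 and 1487 RPKM at D7. Interferon-stimulated genes summed to 1270 and 893 RPKM at D0, dipped to 69 and 152 RPKM at D2, and came back to 1545 and 2617 RPKM at D7, in WT and K36M cells. Contractile genes had their highest median at D2, 2.41, when WT cells had 7.73 RPKM and K36M cells 57.5 RPKM of *Acta2*.

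**Figure D4:**
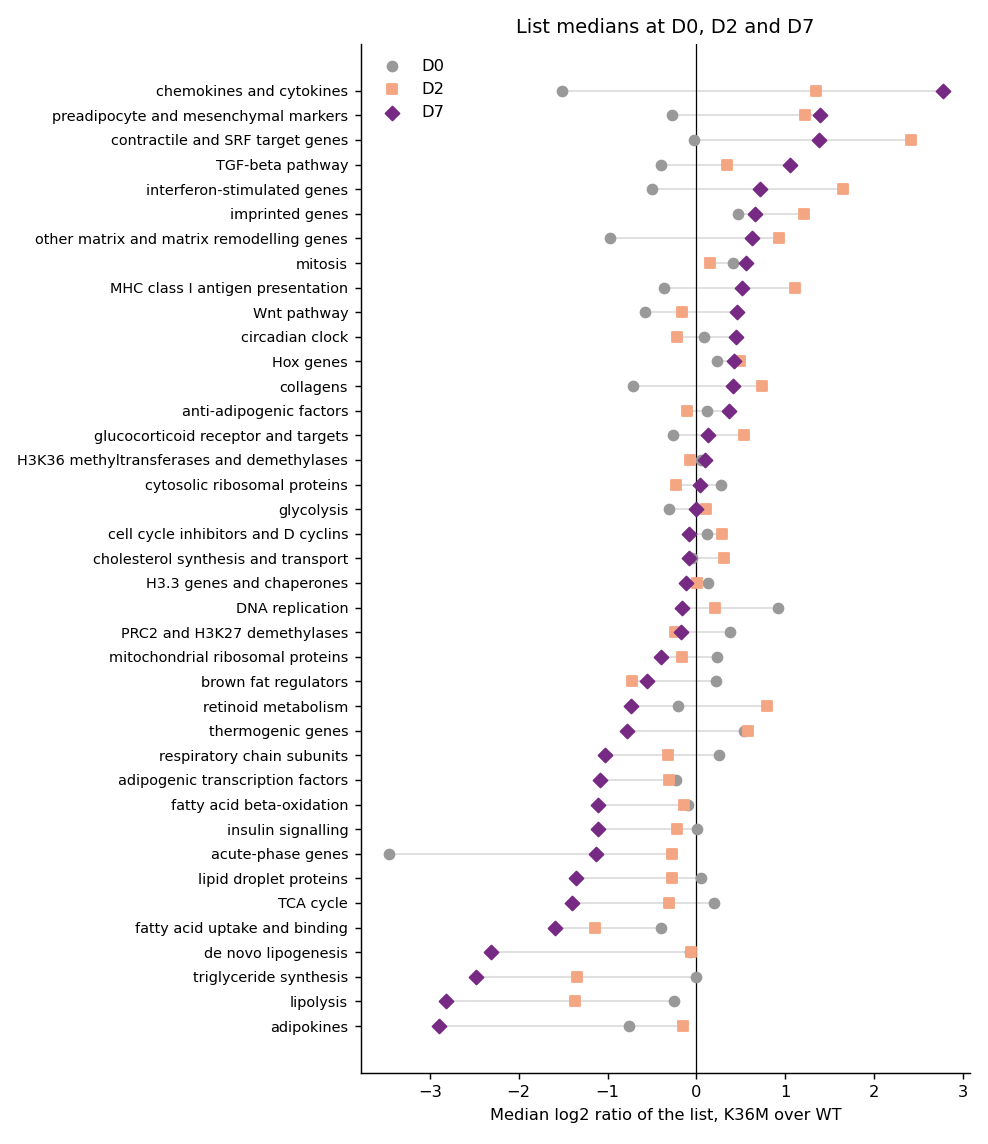
Median log2 ratio (K36M over WT) of each list at D0 (grey circles), D2 (orange squares), and D7 (purple diamonds), for lists with at least 5 members kept on each day and taken over members kept both on that day and at D7. Chemokines run from -1.51 to 2.77, and the median of de novo lipogenesis is near 0 at D0 and D2 and at -2.31 at D7.

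Some genes lay on opposite sides at D2 and D7. Of the 869 genes lower at D7, 70 (8.06%) were over 2-fold higher at D2, and of the 1081 genes higher at D7, 21 (1.94%) were over 2-fold lower at D2. Both shares were below those of all 11667 genes kept at both days, 10.6% and 3.94%. Asking for at least 5 RPKM at both days left 25 and 5 genes. *Gas6*, a ligand of TAM receptors, had 25.1 RPKM in WT and 91.1 RPKM in K36M cells at D2, and 627 and 178 RPKM at D7. *Fkbp5* had 56.8 and 148 RPKM at D2. *Slc2a4* and *Thrsp*, which were low at D2, crossed as well, from 0.816 and 2.74 RPKM and from 0.151 and 2.46 RPKM. The other way, *Inhba*, an activin subunit gene, had 16.4 RPKM in WT and 3.76 RPKM in K36M cells at D2, and 4.17 and 12.8 RPKM at D7, and *Egr2*, an early response gene, had 28.1 and 13.1 RPKM and then 3.60 and 14.9 RPKM.

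Genes grouped by their response to induction in libraries other than those of D7 were far apart at D7. Of 1057 genes kept at D7 that were over 2-fold up from D0 to D2 in WT cells, 469 (44.4%) were over 2-fold lower in K36M cells at D7 and 34 (3.22%) higher, with a median of -0.87. Of 1992 genes over 2-fold down from D0 to D2, 88 (4.42%) were lower and 800 (40.2%) higher, with a median of 0.80. The 8805 genes that did neither had a median of 0.084 and 3.68% lower. Within the up-regulated genes, those over 2-fold lower in K36M cells at D2 had a median of -1.95 at D7 (162 of 240 lower), and the others one of -0.74 (307 of 817 lower).

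**Figure D5:**
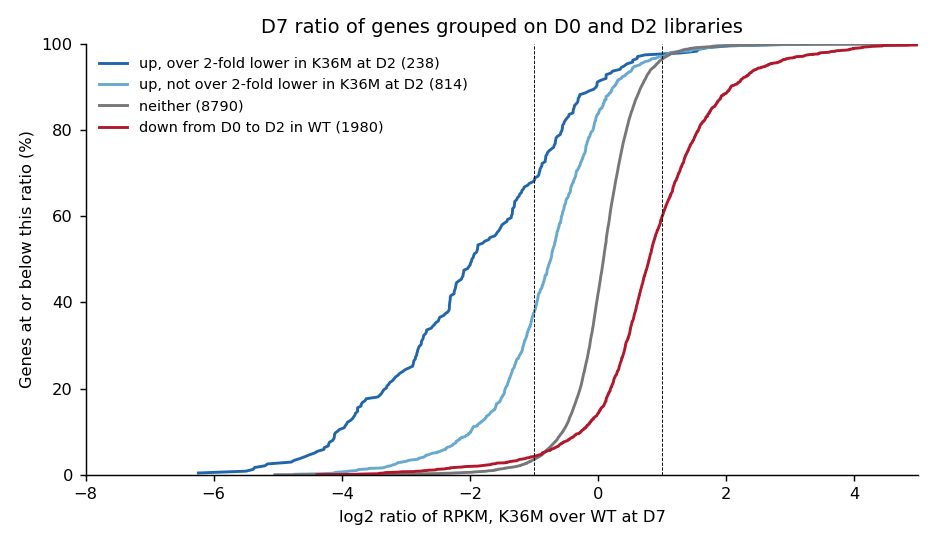
Cumulative share of genes (vertical, percent) at or below each D7 log2 ratio, K36M over WT (horizontal), for 4 groups set from the D0 and D2 libraries, with the number of genes drawn in parentheses (those at 0 in 1 library are not drawn). Dashed lines mark 2-fold. Genes up-regulated by D2 in WT cells lie to the left and genes down-regulated lie to the right of the genes that did neither.

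The D7 genes were also read in 2 other experiments of the series with libraries of their own. In preadipocytes with ectopic PPARγ treated with Rosi, a PPARγ ligand, for 24 h, 373 of 811 genes lower at D7 (46%) were over 2-fold lower in the K36M library, against 11.9% of the 11578 genes kept in both, and 307 of 1127 genes higher at D7 (27.2%) were higher, against 5.9%. The 373 were 27.1% of the genes lower with Rosi and the 307 were 44.9% of those higher. In cells with an shRNA against *Nsd2* compared with control cells at D2, 340 of 802 genes lower at D7 (42.4%) were lower, against 9.54% of 11233 genes, and 169 of 865 (19.5%) were higher, against 4.17%. They made up 31.7% of the genes lower and 36.1% of those higher after the knockdown. Some genes higher at D7 were on the lower side there. With Rosi, 146 of 1127 (13%) were over 2-fold lower, close to the 11.9% of all genes kept in both. After the knockdown, 124 of 865 (14.3%) were lower, against 9.54%. Among interferon-stimulated genes, 15 of 22 kept were lower and 1 was higher after the knockdown. *Cebpa* had log2 ratios of -4.18 with Rosi and -4.03 with the knockdown, and *Cd36* of -2.68 and -7.003. *Grem1* was higher in both, at 2.51 and 3.14. *Cxcl5*, higher at D7, had -2.30 with Rosi and -0.66 (-2.58 to 1.07) with the knockdown. *Pparg*, supplied by the vector in the Rosi cells, had -0.41 and -1.16.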

How the data were processed

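RNA-Seq was compared between 1 library of WT and 1 of K36M cells at D7. D0, D2, Rosi, and *Nsd2* knockdown libraries were used only to group genes or for values side by side. The authors deposited RPKM values per RefSeq transcript (mm9). Per the labels, CASAVA 1.8.2 was among the tools, and the program that mapped the RNA reads is not given in the sources used here. ChIP-Seq samples were not analysed here. Symbols were found for 28436 of 29082 transcripts, and each gene was represented by its transcript of highest mean level in the 14 RNA-Seq libraries. Genes had to reach 1 RPKM in either library, and over 2-fold was the threshold. Whole reads, recovered from the steps of the RPKM values for 26945 of the 26946 transcripts detected in 2 or more libraries, gave depths of 12213559 to 24365867 reads and the 95% Clopper-Pearson intervals (scipy 1.17.1). The procedure was tested on simulated data. With 1 library per condition no test was run. The named genes are those that the study names, up to 4 members with the highest level and both extremes of each of 44 lists, the 10 genes per direction farthest from counting error, and up to 5 per direction on opposite sides at D2 and D7. *Arntl*, *Cry1*, *Cebpd*, *Klf15*, *Zfp423*, *Prdm16*, *Fads2*, *Dlk1*, *Thy1*, *Tagln*, *Cnn2*, *Myl9*, *Cxcl1*, *Cxcl10*, *Ifit3*, *Oas1a*, *Gbp2*, *Gbp3*, *Igtp*, *Srf*, *Csf1*, and the posterior *Hox* genes other than *Hoxb13* were chosen after their values were seen. The same holds for *Pdgfra*, *Cd34*, *Il6*, *H2-Q6*, *H2-Q7*, and *H2-Q9*. The members and lists were chosen with earlier results of these data known. Alternatives were other floors, pseudocounts, rescaling, summed transcripts, and the counting interval.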

Additional observations from a re-analysis of the deposited data

Results flagged for a closer look

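A number of named genes were over 2-fold apart in opposite directions on different days, with counting intervals of the log2 ratio that left out 0 on both days. The difference between days was not tested, since each day has 1 library per condition.

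Between D2 and D7, 10 of these genes were higher in K36M cells at D2 and lower at D7. *Thrsp* (log2 ratio 4.02 at D2 and -5.03 at D7), *Adora1* (2.31 and -5.85), *Slc2a4* (1.75 and -4.11), and *Orm1*, an acute-phase gene (2.42 and -2.73), were low at D2. Their D2 ratios rest on few reads, 3 in WT and 32 in K36M cells for *Thrsp*, 4 and 13 for *Adora1*, 44 and 97 for *Slc2a4*, and 4 and 14 for *Orm1*, and *Adora1* was under 1 RPKM in both libraries at D2 and so not kept there. *Ehd3*, an endocytic recycling gene, had 3.01 and -2.11, and *Ehhadh*, a peroxisomal beta-oxidation gene, had 1.98 and -2.67. The others were *Ndrg2* (1.83 and -1.94), *Gas6* (1.86 and -1.82), *Adh1* (1.69 and -1.77), and the glucocorticoid target *Fkbp5* (1.38 and -1.46).

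Lower at D2 and higher at D7 were *Inhba* (-2.13 and 1.62), *Egr2* (-1.10 and 2.05), *Prg4*, the lubricin gene (-1.38 and 1.57), and *Anxa8* (-2.13 and 1.09). *Mir671* (-3.09 and 1.31) is a locus of 98 bases with 13 and 1 reads at D2 and 11 and 25 reads at D7, which cannot be told apart from reads of overlapping RNA.

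Between D0 and D7, *Adrb3* (1.79 at D0 and -3.46 at D7) and *Asf1b*, a histone chaperone gene (1.22 and -1.08), were higher and then lower in K36M cells. At D0, *Adrb3* had 14 and 45 reads and was under 1 RPKM in both libraries. Lower at D0 and higher at D7 were *Cxcl5* (-3.79 and 4.44), *Ccn5* (-4.03 and 2.56), *Sfrp1* (-2.66 and 3.63), *Ccl2* (-1.22 and 2.70), *Ly6a* (-1.70 and 1.27), *Ltbp2* (-1.003 and 1.66), *Bgn* (-1.01 and 1.09), and the Wnt receptor gene *Fzd1* (-1.59 and 1.08). *Anxa8* was lower at D0 as well (-2.25), and the clock output gene *Dbp* went from -1.24 to 2.59.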

How the results depend on the processing

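With no floor on RPKM, 2268 genes were over 2-fold lower and 3400 higher, and with a floor of 5 RPKM the counts were 690 and 842, since fewer or more genes were counted. Under the other alternatives (pseudocounts of 0.1 and 1, 2 rescalings, summed transcripts, and the counting interval) the counts ran from 807 to 1231 lower and from 1029 to 1545 higher. Setting the median of the genes kept to 0 moved lower genes from 41.9% to 49.1% of those past 2-fold. No gene or list median past 2-fold had its direction reversed. Among values near 0, setting the median to 0 turned the sign of the cytosolic ribosomal protein median (-0.086), the H3K36 enzyme median (-0.027), and *Rps9* (-0.10), *Cdkn2a*, *Kdm4a*, *H2-D1*, and *Plagl1*. Of the list counts, medians, and gene values recomputed, 65, 37, and 276 moved, and 655, 304, and 1715 did not. Collagen counts went to 7 lower and 16 higher without a floor. No paired analysis was possible because each condition had 1 library and no replicate number, and for the same reason no replicate could be left out. Depth limits genes of few reads: 46 genes kept had no read in WT and 29 none in K36M cells at D7.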
